A study of Saccharomyces cerevisiae with 6 samples.

Results

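The 10 genes described here encode folding factors of the endoplasmic reticulum (ER) of budding yeast: the chaperone gene KAR2, its exchange factor genes LHS1 and SIL1, its J-protein genes SCJ1 and JEM1, the oxidation and disulfide genes ERO1, PDI1 and EUG1, the prolyl isomerase gene FPR2 and the calnexin gene CNE1. They were chosen by name for their function, with earlier results of these data known. Each matched 1 spot by its platform gene symbol, among 5365 genes named on the array. Of the 10, 9 had a value on all 3 hybridizations and were tested among 3642 such genes; SCJ1 had no value on replicate 2.

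Exposed cells were Saccharomyces cerevisiae S288C treated for 2 h with chloroacetaldehyde at 25 ppm (final concentration), a reactive aldehyde that modifies both DNA bases and protein or glutathione thiols. It was given at an optical density of 1 to exponential cultures in YPD, a rich glucose medium, at 25 °C. The cells they were set against were S288C cells at an optical density of 1, before treatment. Polyadenylated RNA of exposed cells carried Cy5 and that of cells before treatment carried Cy3, and the 3 independent biological samples were each hybridized once and read with a high and a low laser setting, which gave 6 scans.

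Each value is a log2 ratio, exposed over before, averaged over the scans of its hybridization. No source used here names the log base or the direction. Base 2 was assumed, and exposed over before is the likely direction, from the order of the channels in the labels; the opposite direction would turn every sign. All arrays had the same dye order and exposed cells had grown 2 h longer, so dye, growth and exposure cannot be told apart. The arrays give ratios and no levels, so neither transcript abundance nor strain markers could be read from them.

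Proteins that enter the secretory pathway fold in the ER. There the Hsp70 chaperone Kar2 binds unfolded chains in a cycle driven by J-proteins and by nucleotide exchange factors, while the Ero1 and Pdi1 pair forms disulfide bonds from protein thiols. When unfolded proteins build up, the membrane sensor Ire1 splices HAC1 mRNA, and the Hac1 factor made from it raises transcription of many of these genes, a programme known as the unfolded protein response.

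None of the 9 tested folding factor genes passed the test over all genes (0 at an adjusted p under 0.05, limma with Benjamini-Hochberg adjustment), where 0.0549% of all genes tested did. SIL1 at 0.76 ± 0.35 and FPR2 at 0.73 ± 0.40 had the highest means and were the only tested members positive on all 3 hybridizations (mean ± SD, n = 3). The Hsp70 gene KAR2 had 0.12 ± 0.46, with hybridizations of opposite sign, and JEM1, at -0.25 ± 0.12, was the only one negative on all 3. Of all genes tested, 11.5% were higher and 16.1% lower on all 3 hybridizations. At an unadjusted p under 0.05 (limma) there were 2 members, SIL1 and FPR2, both higher. Of all genes, 6.15% had such a p, 2.77% with a higher and 3.38% with a lower ratio. Earlier results on SIL1 and FPR2 were known when the list was chosen, so this count is a description. The count also rests on moderation, which draws each gene's spread toward the common spread. In limma without moderation the unadjusted p was 0.064 for SIL1 and 0.089 for FPR2. That of JEM1, with a negative mean, lay between them at 0.068 (limma without moderation).

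**Figure D1:**
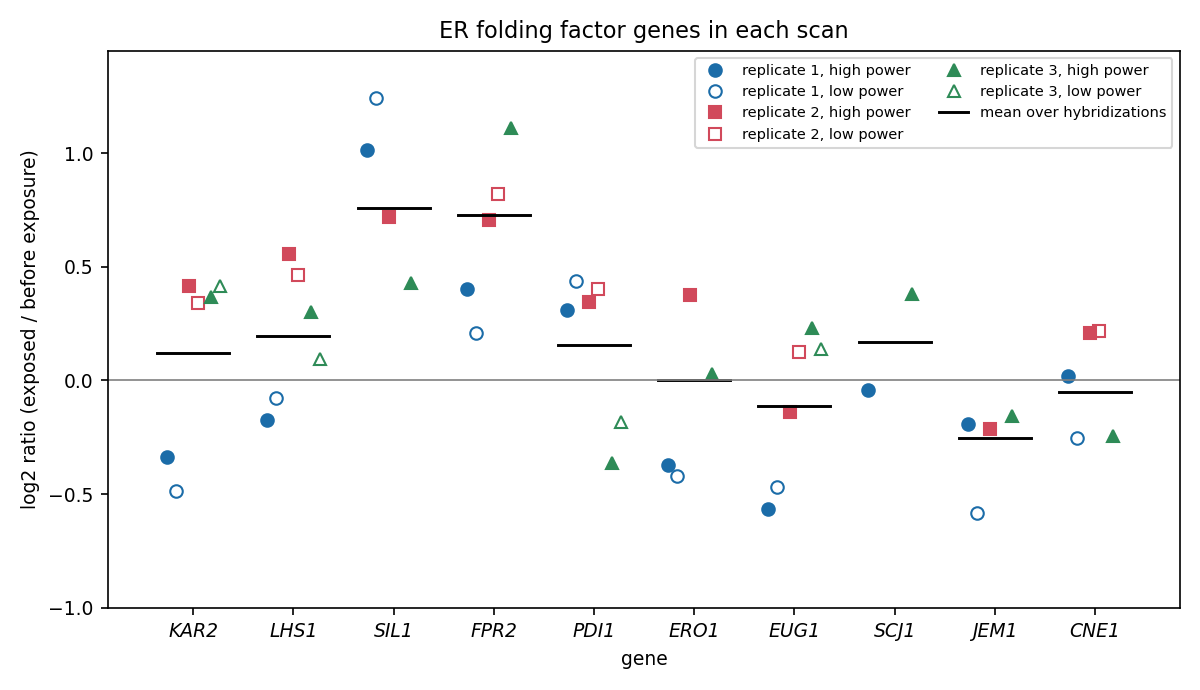
Log2 ratio (exposed over before) of each of the 10 genes in each scan: filled symbols are high-power scans, open symbols low-power scans, shapes and colours the 3 hybridizations, and black lines the mean over hybridizations. All scans of SIL1 and FPR2 lie above 0, all of JEM1 below it, and KAR2 has replicate 1 below 0 and the other replicates near 0.38 and 0.39.

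KAR2 (YJL034W) encodes the Hsp70 chaperone of the ER lumen, whose transcript is the classical readout of the unfolded protein response. Its log2 ratios on replicates 1, 2 and 3 were -0.41, 0.38 and 0.39. Replicate 1 was low and the others were high, so the mean of 0.12 was smaller than the SD of 0.46 (limma, adjusted p = 0.965). The 95% confidence interval of the mean ran from 0.73-fold to 1.62-fold. High and low scans of KAR2 differed by at most 0.15, so the split between hybridizations was also present in the repeat scans. The 36 spots that share the leading digits of the KAR2 spot number, called its neighbourhood here although no source used says whether they lie together on the array, had a median of -0.32 on replicate 1 and 0.20 on replicate 3 in the high-power scans. Neighbourhood medians given here and below are those of the high-power scans. Each median, also those subtracted below, rests on the spots with a value in that scan, which can be fewer than 36. In a setting added after seeing the data, each scan had its own neighbourhood median subtracted before scans were averaged. KAR2 then had -0.016, 0.39 and 0.32 and a mean of 0.23 ± 0.22 (limma, adjusted p = 0.851).

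SIL1 (YOL031C) encodes a nucleotide exchange factor that releases nucleotide from Kar2. Its log2 ratios were 1.13, 0.72 and 0.43, which stood at percentiles 97.4, 92.3 and 85.4 of the genes measured on each hybridization. All replicates were positive, with replicate 1 the highest. The mean was 1.69-fold, with a 95% confidence interval of 1.16-fold to 2.47-fold before adjustment, and the adjusted p was 0.596 (limma). Only replicate 1 had a low-power value, 1.24, against 1.01 at high power. With neighbourhood medians subtracted SIL1 had 0.93, 0.69 and 0.50, all still positive.

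LHS1 (YKL073W) encodes an Hsp70-like protein that also exchanges nucleotide on Kar2. Its values were -0.12, 0.51 and 0.20, with a mean of 0.19 ± 0.32 (limma, adjusted p = 0.929). The replicates fell on both sides of 0, as for KAR2, with replicate 1 lowest. The exchange factor SIL1 lay above LHS1 on every hybridization, and above KAR2 too. LHS1 in turn was above ERO1, EUG1 and JEM1 on every hybridization.

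JEM1 (YJL073W) encodes a membrane-bound J-protein of the ER that works with Kar2 and is known for its part in nuclear fusion during mating. It had -0.39, -0.22 and -0.15, all below 0 and close together. The mean was -0.25 ± 0.12, with a 95% confidence interval of -0.75 to 0.25 and an adjusted p of 0.903 (limma). Its SD was among the lower ones, at percentile 7.63 of all genes tested, and moderation toward the common spread widened its interval. The 2 scans of replicate 1 differed by 0.40, the widest gap between scans among the 10 genes. SCJ1 (YMR214W), the gene of a luminal J-protein, had -0.041 on replicate 1 and 0.38 on replicate 3 in the high-power scans alone. With 2 values of opposite sign it was not tested.

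PDI1 (YCL043C) encodes the main protein disulfide isomerase. Its values were 0.37, 0.37 and -0.27: replicates 1 and 2 were high and replicate 3 was low, which was not the order seen for KAR2. The mean was 0.16 ± 0.37 (limma, adjusted p = 0.959). On replicate 1 its spot neighbourhood had a median of 0.28 and on replicate 3 of -0.19. With neighbourhood medians subtracted in each scan the values were 0.099, 0.36 and -0.080.

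ERO1 (YML130C) encodes the thiol oxidase that passes oxidizing equivalents to Pdi1. It had -0.40, 0.37 and 0.030, with a mean of 0.0024 ± 0.39 (limma, adjusted p = 0.998), and its confidence interval of 0.68-fold to 1.47-fold was centred on no change. Replicate 1 was low, in a neighbourhood with a median of -0.32. The enzyme and its partner thus had opposite signs on replicates 1 and 3, and the same sign on replicate 2.

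EUG1 (YDR518W) encodes an ER protein similar to Pdi1. It had -0.52, -0.0076 and 0.18, with a mean of -0.11 ± 0.36 (limma, adjusted p = 0.965). The replicates spread across 0, and without replicate 1 the mean was 0.088. FPR2 (YDR519W), which encodes a peptidyl-prolyl isomerase of the ER, lies next to EUG1 in gene order. Its values were 0.31, 0.76 and 1.11, at percentiles 74.3, 93.4 and 97.9 of each hybridization. All were positive, and replicate 3 was the highest where SIL1 had its lowest. The mean was 1.66-fold, with a 95% confidence interval of 1.12-fold to 2.44-fold before adjustment (limma, adjusted p = 0.633). FPR2 was above its neighbour EUG1 on every hybridization. The neighbourhood of the FPR2 spot had a median of 0.35 on replicate 2, and with neighbourhood medians subtracted FPR2 had 0.20, 0.52 and 1.24.

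CNE1 (YAL058W) encodes the yeast calnexin, a membrane protein of the ER that takes part in the folding and quality control of glycoproteins. It had -0.12, 0.21 and -0.24, and a mean of -0.049 ± 0.23 (limma, adjusted p = 0.980). Replicate 2 alone was above 0. The 2 scans of replicate 1 had opposite signs, at 0.021 and -0.25.

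**Figure D2:**
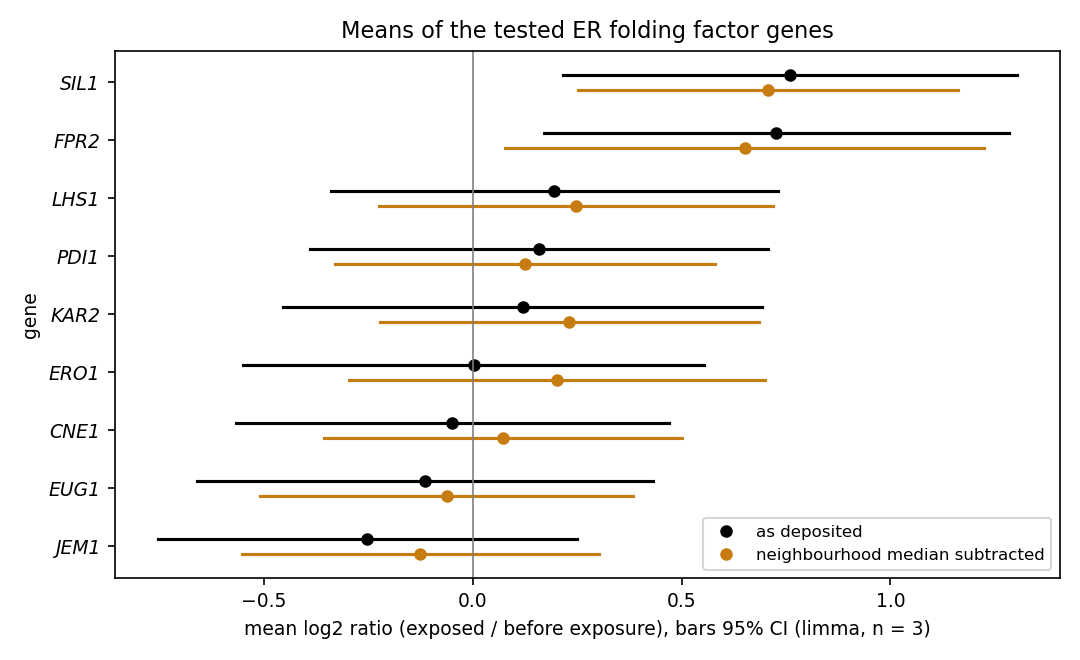
Mean log2 ratio (exposed over before) of the 9 tested genes with 95% confidence intervals from limma (n = 3), before adjustment for the number of genes; black shows values averaged over scans, orange the same after the median of neighbouring spot numbers was subtracted. The intervals of SIL1 and FPR2 lie above 0 under both, and those of the other 7 genes cross 0. All intervals use moderated spreads. For values averaged over scans, limma without moderation gave an unadjusted p of 0.064 for SIL1, 0.068 for JEM1 and 0.089 for FPR2.

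In order of their means the genes ran SIL1, FPR2, LHS1, PDI1, KAR2, ERO1, CNE1, EUG1 and JEM1. SIL1 was above 7 of the other 8 tested genes on every hybridization, with FPR2 as the exception, and FPR2 was above 6 of them. Of the 36 pairs of tested genes, 17 kept the same order on all 3 hybridizations, most of them pairs with SIL1 or FPR2. The share over pairs of all genes was not computed, so this count is a description. Neighbours in this order differed in mean by less than the larger of their SDs, except FPR2 and LHS1: LHS1 minus FPR2 was -0.53 in the mean, with SDs of 0.32 for LHS1 and 0.40 for FPR2. For 1 gene, or for 1 difference between genes, an exact two-sided sign-flip test over 3 hybridizations cannot give a p below 0.25, which SIL1, FPR2 and JEM1 had.

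The median of the 9 tested folding factor genes varied between hybridizations. It was -0.12 on replicate 1, 0.37 on replicate 2 and 0.18 on replicate 3, against -0.092, -0.0060 and -0.023 for all genes tested. On replicate 1 there were 3 of 9 above 0, on replicate 2 there were 7 and on replicate 3 there were 6. Of the 9, 6 had their lowest value on replicate 1, 0 on replicate 2 and 3 on replicate 3. Spot neighbourhoods of the 10 genes had medians from -0.33 to 0.28 on replicate 1. With neighbourhood medians subtracted in each scan the medians of the tested genes were 0.099, 0.39 and 0.080, with 5, 8 and 6 above 0. The part of spot number in the difference between hybridizations was not tested beyond this subtraction. The median of the 9 means was 0.12, against -0.037 over all genes tested, and 6 of 9 means were positive, against 44.8% of all genes tested. With replicate 1 left out this median was 0.20 and 7 means were positive, with replicate 2 left out -0.010 and 4, and with replicate 3 left out 0.049 and 5.

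Repeat scans agreed more closely than hybridizations. Of 30 possible values per laser power, 29 were present at high power and 19 had a low-power partner. The median absolute difference between partners was 0.11, while the median SD of a tested member over hybridizations was 0.36, close to the 0.38 of all genes tested. The median confidence interval of a member reached 0.55 to either side of its mean. Over the whole table, replicates 1 and 2 correlated at 0.21, replicates 1 and 3 at -0.054 and replicates 2 and 3 at 0.070 across genes, which are not independent, and each hybridization's scans correlated at 0.921 to 0.937 across spots.

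**Figure D3:**
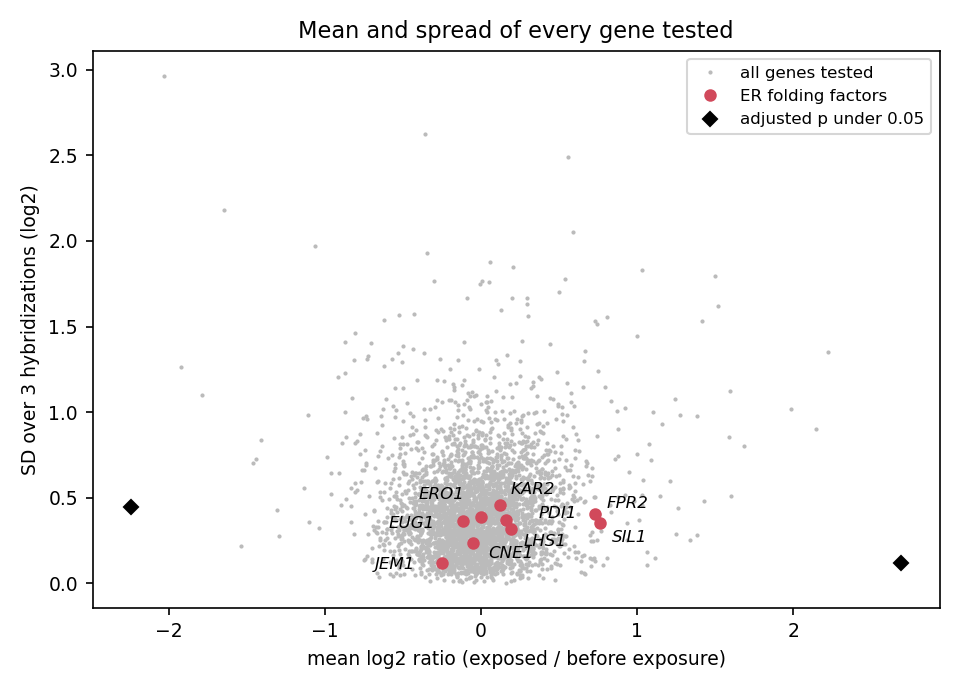
Mean log2 ratio (exposed over before) against the SD over 3 hybridizations for the 3642 genes tested (grey), with the 9 tested ER folding factor genes in red and the 2 genes past the threshold as black diamonds. SIL1 and FPR2 lie at percentiles 98.5 and 98.3 of the mean, and the other 7 lie within the bulk of the genes.

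Other genes of ER protein folding and quality control, 55 in 6 lists chosen for their function, had 0 past the threshold among 41 tested (limma, adjusted p under 0.05), and 1, SEC11, at an unadjusted p under 0.05. Their median was 0.021, and 21 had a positive and 20 a negative mean, where 44.8% of all genes tested had a positive one. On all 3 hybridizations 5 were higher and 4 lower, against 11.5% and 16.1% of all genes tested. Of all genes tested 6.15% had an unadjusted p under 0.05. The folding factors' range of means, -0.25 to 0.76, overlapped with that of the 41 other ER genes, -0.50 to 0.70.

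Of 4 signalling genes 1 was tested, and it did not pass. HAC1, which encodes the transcription factor of the response, had 0.42, -0.11 and 0.33 (limma, adjusted p = 0.928). The ratio of a HAC1 spot does not separate spliced from unspliced mRNA. IRE1, the gene of the sensor and splicing enzyme, had -0.47 on replicate 1 and -0.77 on replicate 3 and was not tested; both values were negative.

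Among the other disulfide isomerase and oxidase genes, 3 were tested and 0 passed. MPD1 and MPD2, both of which encode members of the protein disulfide isomerase family, had means of 0.15 and 0.096, each with 1 negative hybridization. Among other ER co-chaperones and prolyl isomerases, 5 were tested and 0 passed. SEC63, the gene of a J-protein that recruits Kar2 to the translocon, had -0.63, -0.18 and 0.19, and the cyclophilin gene CPR4 had -0.53, -0.11 and 0.29. Both had their lowest value on replicate 1, as KAR2 did, but the median of the 5 genes was highest there (0.21, -0.11 and 0.043).

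Of 10 tested genes of the translocon and signal peptidase, 0 passed. On all 3 hybridizations 3 were higher and 1 was lower, where 11.5% and 16.1% of all genes tested were. SEC11, the gene of the catalytic subunit of signal peptidase, had 0.53, 0.74 and 0.81, or 1.62-fold in the mean (limma, adjusted p = 0.601). SEC61, the gene of the channel itself, had -0.30, -0.37 and -0.66 (limma, adjusted p = 0.829). SEC11 and SEC61, the 2 genes of smallest p in this list, thus lay on opposite sides of 0 on every hybridization. The peptidase gene SPC3 (1.02, -0.34 and -0.32) and the channel gene SSS1 (0.76, -0.18 and 0.051) did not separate in this way. Of 10 tested genes of oligosaccharyltransferase and glycan trimming, 0 passed; the glucosidase genes ROT2 and CWH41, which act on the glycans that mark folding glycoproteins, had means of -0.26 and -0.22. Of 12 tested genes of ER-associated degradation, which removes misfolded proteins, 0 passed. The mannosidase gene MNL1 had -0.51, -0.54 and -0.43 (limma, adjusted p = 0.804), and the ubiquitin-conjugating enzyme gene UBC7 had 0.59, 0.33 and 0.22 (limma, adjusted p = 0.855).

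**Figure D4:**
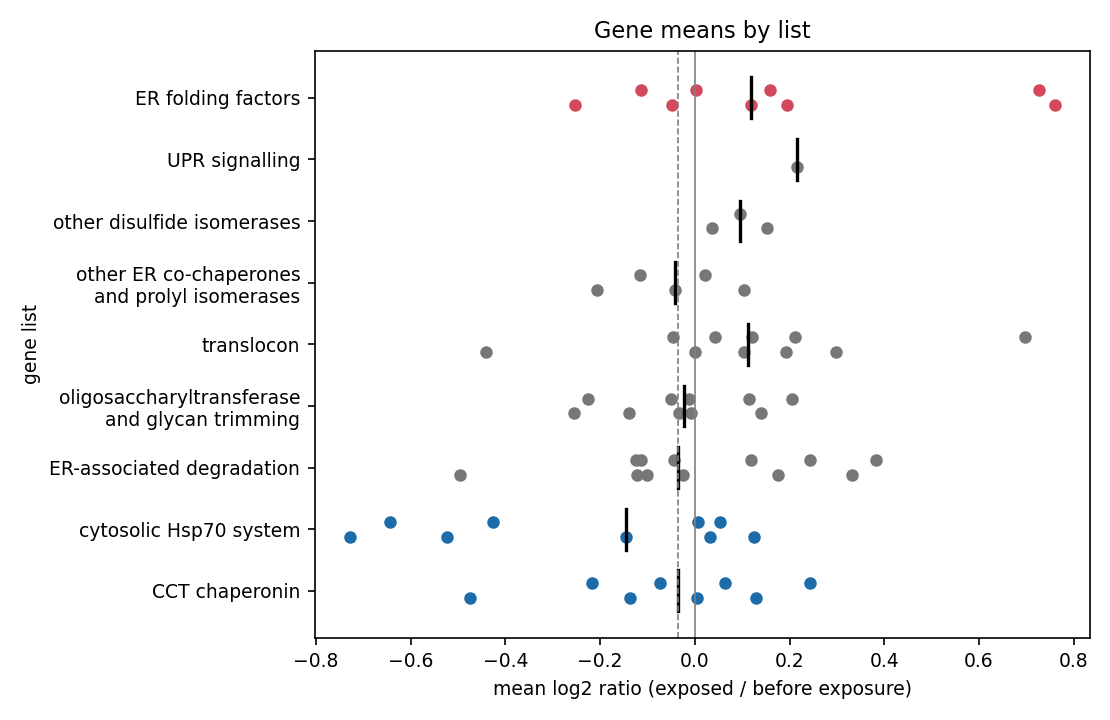
Mean log2 ratio (exposed over before) of every tested gene of each list (points) with the list median (black bars); red is the ER folding factors, grey other ER genes, blue cytosolic chaperones, and the dashed line the median of all genes tested (-0.037). The folding factor median is 0.12 and that of the cytosolic Hsp70 system -0.14, with overlapping ranges.

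Cytosolic chaperones were the nearest counterparts by function. The 9 tested genes of the cytosolic Hsp70 system had a median of -0.14, with -0.25, -0.16 and -0.30 on the hybridizations, and 4 were lower on all 3, where 16.1% of all genes tested were. The 8 genes of the cytosolic chaperonin CCT, a ring complex that folds actin and tubulin, had a median of -0.035; CCT4 and CCT3 had -0.48 and -0.22. In both lists 0 genes passed (limma, adjusted p under 0.05). At an unadjusted p under 0.05 there were 2, FES1 and SIS1, both lower, where 3.38% of all genes tested were lower at such a p. FES1, the exchange factor gene of cytosolic Hsp70, had -0.62, -0.91 and -0.65 (limma, adjusted p = 0.569), and the J-protein gene SIS1 had -1.02, -0.85 and -0.067 (limma, adjusted p = 0.785). All values of both were negative.

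ER genes and their cytosolic relatives were then set side by side, in pairs chosen after their values were seen and so given without a test. Sil1 and Fes1 are related exchange factors, and SIL1 minus FES1 was 1.75, 1.63 and 1.08, a mean difference of 1.49 ± 0.36 (SD, n = 3). For the exchange factor genes LHS1 and SSE1 the difference was 0.70, 0.67 and 0.50, with a mean of 0.62 ± 0.11. For the Hsp70 genes KAR2 and SSA2 it was 0.22, 0.55 and 1.16, with a mean of 0.64 ± 0.48. The ER gene was the higher of each of these 3 pairs on every hybridization. Other choices of relative did not give this order: the cytosolic Hsp70 genes SSB2 (-0.25, 0.32 and 0.083) and SSZ1 (0.29, 0.30 and -0.56) were both above KAR2 on replicate 1. For the J-protein genes SCJ1 and YDJ1 the difference was -0.069 on replicate 1 and 0.35 on replicate 3, with opposite signs. A cDNA spot for SSA2 can bind RNA of its close copy SSA1, so that value, the mean of 2 spots, is uncertain. The same limit applies to SSB2 through its close copy SSB1.

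**Figure D5:**
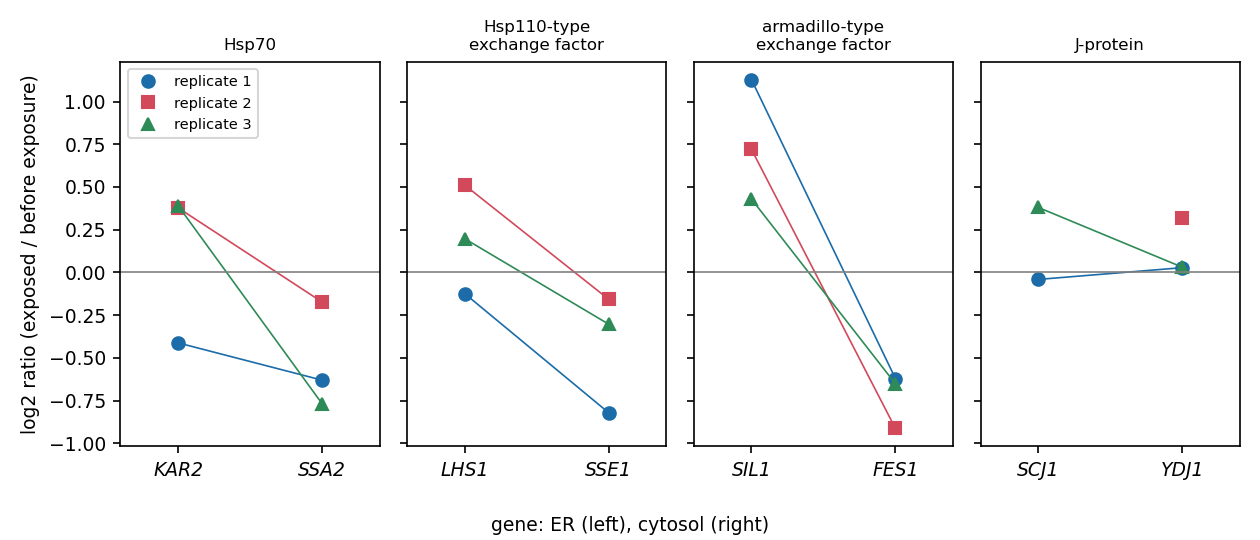
Log2 ratio (exposed over before) of 4 ER genes (left in each panel) and their cytosolic relatives (right) on each hybridization; lines join values of 1 hybridization. In the KAR2, LHS1 and SIL1 panels every line falls toward the cytosolic gene, and in the SCJ1 panel the 2 lines have opposite slopes.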

How the data were processed

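The deposited values are log2 ratios per spot; per the labels, the authors normalized each scan by LOWESS on spots with a flag of 0, and also merged scans in GeneSpring (merged values not used here). No source used here names the scanner, the background correction or the signal over background. LOWESS centres each scan, which hides any shift that most transcripts share. The table holds 6912 spots, 5513 with 1 gene in the platform annotation, 1399 with none and 0 with several; 5508 received a current symbol through the R64 gene table, used for names and gene order. Spots with a value numbered 4121 to 6104 per high-power scan and 1737 to 3871 per low-power scan.

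Scans of a hybridization were averaged, then spots of a gene. A gene needed values on all 3 hybridizations to enter the test against 0 (limma 3.58.1, R 4.3.3; mean, eBayes, two-sided, Benjamini-Hochberg over 3642 genes, threshold 0.05). P-values measure the spread between 3 hybridizations. On simulated data with 200 changed genes, the fit recovered 1.3% of log2 changes of 0.5, 36.2% of 1 and 98.6% of 2. The simulation had independent normal noise and equal numbers of changes of 0.5, 1, 2 and 3. So many changed genes make the Benjamini-Hochberg cutoff looser than in the measured data. There 2 genes passed, with a largest unadjusted p of 1.1e-05 (limma). The recovered shares therefore do not carry over to the measured data and can be too high for them. Even in the simulation most changes of 0.5 and 1 were missed at this threshold, and all member means lay below 1. Alternatives changed 1 choice at a time (scan, genes tested, scaling, moderation, spots, replicates, spot number). Members and lists were chosen with earlier results of these data known. All 10 members are named, HAC1 and IRE1 always, and the 2 genes of smallest p in each other list. SSA2, SSE1, YDJ1, SSB2, SSZ1, SPC3 and SSS1 were named after their values were seen.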

Additional observations from a re-analysis of the deposited data

How the results depend on the processing

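Under 12 other settings (each scan alone, values in both scans, values on at least 2 hybridizations, centring, quantile normalization, no moderation, 1 spot per gene, each replicate left out, and neighbourhood medians subtracted, the last added after seeing the data) 0 member values passed the threshold, and the lowest adjusted p was 0.321, for SIL1. SIL1 ran from 0.58 to 0.92 and FPR2 from 0.53 to 0.94, positive in all 10 alternatives that gave a value. Neither had one from the low-power scans alone or from genes in both scans. Several of these alternatives could not turn the sign. Values on at least 2 hybridizations, no moderation and 1 spot per gene left both means unchanged. Leaving out 1 replicate could not turn a mean whose replicates all had the same sign. Both limits also hold for JEM1. LHS1, PDI1 and JEM1 kept their sign, but with 1 replicate left out LHS1 ran from 0.037 to 0.35, PDI1 from 0.050 to 0.37 and JEM1 from -0.30 to -0.19. Signs turned in 7 cases: KAR2 was -0.010 without replicate 2 and -0.017 without replicate 3, ERO1 -0.18 without replicate 2 and -0.011 without replicate 3, EUG1 0.088 without replicate 1, and CNE1 0.049 without replicate 3 and 0.072 with neighbourhood medians subtracted; leaving out 1 replicate in turn gave -0.017 to 0.38 for KAR2, -0.18 to 0.20 for ERO1, -0.26 to 0.088 for EUG1 and -0.18 to 0.049 for CNE1. On replicate 3 the CNE1 value of -0.24 was itself the median of its neighbourhood, so the subtraction set it to 0. The cause of each turn was not tested beyond the replicate or median removed. Members with a positive mean numbered 3 of 4 with the low-power scans alone or with values in both scans, against 6 of 9, because fewer members were measured, and 4 to 7 of 9 with a replicate left out; the median of the member means then ran from -0.010 to 0.20. Among all genes tested, 2 passed; 4 did with values in both scans, 1 with quantile normalization, 0 without moderation, 1 with neighbourhood medians subtracted, and 0 to 12 with a replicate left out. No paired analysis was possible because there is 1 group, and each array already sets exposed cells against cells before treatment. Signal over background is unknown, and 3 arrays limit the precision.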
